A study of Rattus norvegicus with 24 samples.

Results

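Zinc transporters were described in the CA1 field of the rat hippocampus, as 8 genes: Tmem163, 4 members of the Slc30 family (Slc30a1, Slc30a3, Slc30a4 and Slc30a5) and 3 members of the Slc39 family (Slc39a1, Slc39a10 and Slc39a14). They are 8 of 14218 genes that the platform annotation ties to a probe set of a single gene symbol, and every probe set that carries only 1 of these 8 symbols was taken, 11 in all. Arrays were hybridised with total RNA of microdissected CA1 from male Long-Evans rats that had been through a water maze test of spatial memory. Aged Impaired rats (24 to 26 months, 8 arrays) had scored worse than young rats on a learning index, Aged Unimpaired rats (24 to 26 months, 6 arrays) had scored inside the range of young rats, and Young rats (6 months, 9 arrays) went through the same test. The rats received no treatment, all were housed singly, and each array is labelled as a separate biological replicate. The set was chosen with measured values of these arrays, but which values is not given in the sources used here. It was treated as chosen by the log2 differences between aged and Young arrays, in which Tmem163 was among the lower genes. Differences of the 8 genes from Young arrays are therefore given as a description, with a standard error and no p-value, and counts of calls in them support nothing. The difference between the aged groups was tested.

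Zinc is held in the cytosol by binding proteins and is moved by 2 transporter families that work in opposite directions. Slc30 proteins (ZnTs) carry zinc out of the cytosol, either out of the cell or into vesicles and organelles, and Slc39 proteins (ZIPs) carry it into the cytosol. In the hippocampus part of the zinc lies in synaptic vesicles of glutamatergic terminals, from which it is released with glutamate, and Tmem163 is a vesicle membrane protein, first described on rat synaptic vesicles, that binds and transports zinc.

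Signals are log2 values made by the authors with GCRMA, so that a step of 1 is a doubling, and a probe set was called dim if fewer than 6 of the 23 arrays exceeded a log2 signal of 4. By this limit 7 of the 11 probe sets passed, 1 for each of 7 genes, and 4 were dim. Slc30a1 had only a dim probe set, and Tmem163, Slc30a4 and Slc39a14 each had a dim one beside the one used. Signals of different genes come from different probes and were not compared with each other. A median array signal lay between 4.2 and 4.28 over all probe sets. Over the probe sets used for the genes that passed the limit it lay between 8.30 and 8.56, a wider spread. The CA1 pyramidal cell markers that passed the limit were 5 genes, with mean log2 signals from 9.77 (Man1a1) to 12.44 (Mpped1).

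Start-site regions are shown for the 2 transporters that were lower in aged CA1, Tmem163 and Slc39a10, and for the metallothionein Mt2A, the zinc gene outside the 8 that was higher. Each runs from 250 bases before to 50 bases after the gene's start in RefSeq, 5′ to 3′ on the gene's strand. Capitals mark matches to the core of the metal response element, at which the zinc sensor MTF1 is known to bind in mouse, searched as TGCACNC and TGCGCNC on both strands.
Tmem163 (GRCr8, chr13:41693889-41694188, minus strand): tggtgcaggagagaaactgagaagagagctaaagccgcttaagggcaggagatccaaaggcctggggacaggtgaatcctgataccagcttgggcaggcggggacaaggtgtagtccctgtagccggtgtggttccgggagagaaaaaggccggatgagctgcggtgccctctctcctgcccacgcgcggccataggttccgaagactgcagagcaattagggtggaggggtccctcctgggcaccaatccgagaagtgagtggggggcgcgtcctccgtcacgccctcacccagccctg
Slc39a10 (GRCr8, chr9:62405183-62405482, plus strand): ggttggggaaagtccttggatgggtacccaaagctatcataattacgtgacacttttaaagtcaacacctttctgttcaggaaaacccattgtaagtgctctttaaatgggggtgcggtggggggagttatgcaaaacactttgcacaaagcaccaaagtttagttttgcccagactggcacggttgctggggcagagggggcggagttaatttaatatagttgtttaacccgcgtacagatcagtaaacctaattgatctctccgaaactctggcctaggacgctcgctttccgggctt
Mt2A (GRCr8, chr19:10838659-10838958, minus strand): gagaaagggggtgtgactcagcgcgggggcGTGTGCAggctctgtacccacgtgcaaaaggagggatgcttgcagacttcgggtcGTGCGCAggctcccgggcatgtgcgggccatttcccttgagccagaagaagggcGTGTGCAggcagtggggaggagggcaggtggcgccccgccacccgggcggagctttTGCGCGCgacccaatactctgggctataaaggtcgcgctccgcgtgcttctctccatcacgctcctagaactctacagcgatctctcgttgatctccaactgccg
Neither Tmem163 nor Slc39a10 held a match in this window, and Mt2A held 4. Of the 7 members with a region in the table, 4 held a match (Slc30a1, Slc30a4, Slc30a5 and Slc39a1) and 3 held none (the other was Slc30a3). In Slc30a5 the 2 matches, 1 on each strand, overlapped. Among the regions of the same length, 24.2% of 33469 held a match over all genes and 37.3% of 8588 over the genes tested here. Regions with 4 or more matches were 0.885% of those of the genes tested. G and C made up 62% of the Tmem163 region, 47% of that of Slc39a10 and 63.7% of that of Mt2A. They made up 66.3% to 82.3% in the 4 members with a match and 70.3% in Slc30a3, with a median of 61.3% over the genes tested. The searched strings are rich in G and C, and the part of base content in the matches was not tested. A match is a string of letters and not a measured binding site.

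Tmem163 was the member that differed most between aged and Young CA1. Its signal was 4.83, 4.44, 4.60, 4.90, 4.43, 4.48, 4.59 and 5.25 in Aged Impaired replicates 1 to 8, and 4.61, 4.60, 4.60, 4.46, 4.002 and 4.83 in Aged Unimpaired replicates 1, 2, 3, 4, 5 and 7. In Young replicates 1 to 9 it was 5.05, 5.08, 5.39, 5.53, 5.04, 4.94, 5.21, 6.24 and 5.23. The signal stayed under the lowest Young value in 13 of 14 aged rats, and the exception was Aged Impaired replicate 8. The means were 4.69 ± 0.29 in Aged Impaired (SD, n = 8), 4.52 ± 0.28 in Aged Unimpaired (SD, n = 6) and 5.30 ± 0.40 in Young arrays (SD, n = 9). The log2 difference from Young arrays was -0.61 ± 0.15 (SE) in Aged Impaired and -0.78 ± 0.17 in Aged Unimpaired arrays, which are signals 1.53-fold and 1.72-fold lower. All 6 Aged Unimpaired arrays lay below the Young range without overlap. Of the genes tested, 0.771% had no overlap between these 2 groups, counted in either direction. The limit of 4 was exceeded on all 23 arrays, but the aged signals lay close to it, so the size of the difference rests on the background correction that the deposited values carry. The other Tmem163 probe set was dim on every array, at 1.88 to 1.91 in aged and 1.89 to 1.94 in Young arrays, and gives no fold.

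Young replicate 8 stood apart in Tmem163 at 6.24. Without it the log2 difference from Young arrays was -0.49 in Aged Impaired and -0.66 in Aged Unimpaired arrays. Aged Impaired replicate 8 was the aged array with the highest Tmem163 signal. Of all arrays it also had the lowest 3 prime minus 5 prime log2 signal of control probe sets, at 1.15, against 1.23 to 1.55 in Young arrays. This is a measure of RNA integrity, in which a lower value stands for less degraded RNA. Young replicate 8, the array with the highest Tmem163 signal, stood at 1.51 in it. With this measure as a covariate the log2 difference from Young arrays was -0.61 in Aged Impaired and -0.78 in Aged Unimpaired arrays. Without Aged Impaired replicate 8 the log2 difference of Aged Impaired from Young arrays was -0.69. In whole-tissue RNA, fewer cells that express a gene and less RNA per cell cannot be told apart.

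Slc39a10, an importer of the plasma membrane, was the other member lower in aged CA1. Its signal was 10.89, 10.72, 10.86, 10.98, 10.97, 10.80, 10.77 and 10.56 in Aged Impaired replicates 1 to 8, and 10.82, 10.76, 10.77, 10.81, 10.91 and 10.67 in Aged Unimpaired replicates 1, 2, 3, 4, 5 and 7. In Young replicates 1 to 9 it was 11.15, 11.01, 11.13, 11.08, 10.98, 11.01, 10.86, 11.001 and 11.13. The groups overlapped: 4 of 8 Aged Impaired and 5 of 6 Aged Unimpaired arrays lay under the Young range, in which Young replicate 7 was the lowest. The means were 10.82 ± 0.14 in Aged Impaired (SD, n = 8), 10.79 ± 0.08 in Aged Unimpaired (SD, n = 6) and 11.04 ± 0.09 in Young arrays (SD, n = 9). The log2 difference from Young arrays was -0.22 ± 0.05 (SE) in Aged Impaired and -0.25 ± 0.06 in Aged Unimpaired arrays, signals 1.17-fold and 1.19-fold lower. This probe set was bright on all arrays, far above the limit for dim ones. Aged Impaired replicate 8 was the lowest array for Slc39a10 and the highest aged array for Tmem163. It also had the lowest median signal over the genes tested, at 8.30, against 8.33 to 8.56 on the other arrays. Without this array the log2 difference in Slc39a10 of Aged Impaired from Young arrays was -0.19. With all arrays kept and each centred on its median, that difference was -0.24.

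**Figure D1:**
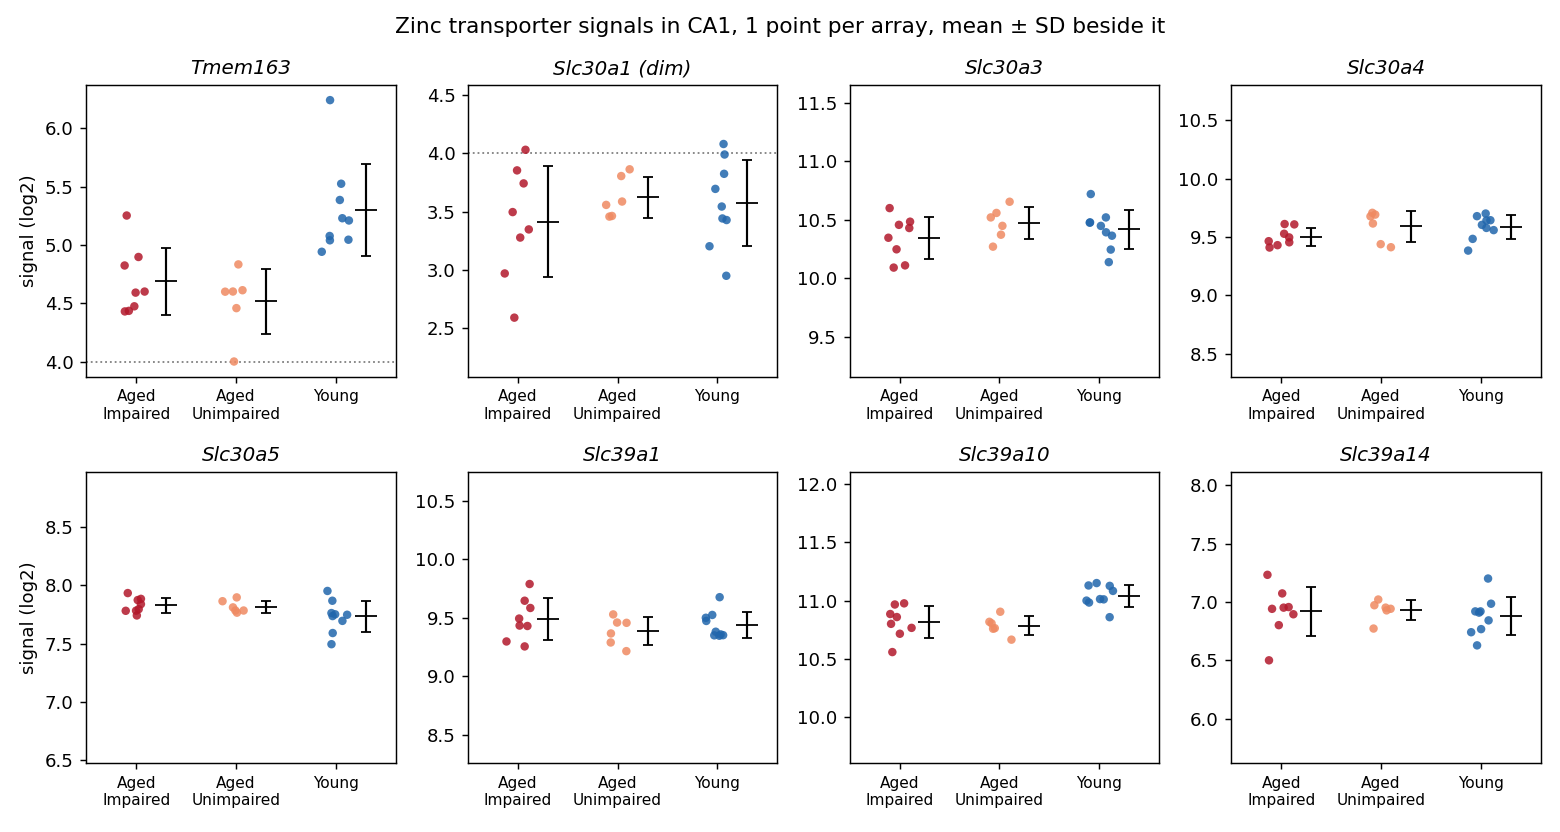
Signal (log2) of each zinc transporter on each array of Aged Impaired, Aged Unimpaired and Young rats, 1 point per array, with the group mean ± SD beside the points and the limit for dim probe sets as a dotted line. Every panel spans the same number of log2 units; Tmem163 and Slc39a10 are lower in both aged groups, and all but 2 of the Slc30a1 points lie under the limit.

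Of the exporters and vesicle loaders, Slc30a3 (ZnT3), which fills synaptic vesicles with zinc, had closely matched signals in the 3 groups. The lowest, median and highest signals were 10.09, 10.39 and 10.60 in Aged Impaired, 10.27, 10.48 and 10.65 in Aged Unimpaired and 10.14, 10.45 and 10.72 in Young arrays. The log2 difference from Young arrays was -0.07 ± 0.08 (SE) in Aged Impaired and 0.05 ± 0.08 in Aged Unimpaired arrays, and the 95% interval of the aged groups together reached from -0.16 to 0.12. The groups overlapped almost over their whole range. Slc30a3 is strongly expressed by dentate granule cells. Of 7 genes taken as dentate markers only Prox1 and Calb2 passed the limit for dim probe sets, too few to measure these cells. The log2 of their summed signal, which Prox1 leads, ran from 7.60 to 8.53 in Aged Impaired, from 7.06 to 8.05 in Aged Unimpaired and from 7.29 to 8.76 in Young arrays.

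Slc30a4, which carries zinc into vesicles, averaged 9.50 ± 0.08 in Aged Impaired (SD, n = 8), 9.59 ± 0.13 in Aged Unimpaired (SD, n = 6) and 9.59 ± 0.10 in Young arrays (SD, n = 9). Its log2 difference from Young arrays was -0.09 ± 0.05 (SE) in Aged Impaired and 0.00 ± 0.06 in Aged Unimpaired arrays, and all groups overlapped. Slc30a5, a transporter of the early secretory pathway, averaged 7.83 ± 0.06 in Aged Impaired, 7.82 ± 0.05 in Aged Unimpaired and 7.73 ± 0.13 in Young arrays, with a log2 difference of 0.09 ± 0.04 (SE) between the aged groups together and Young arrays. The aged arrays of Slc30a5 lay from 7.74 to 7.93, inside the Young range of 7.50 to 7.95. Slc30a1, which exports zinc across the plasma membrane, was dim: it exceeded the limit in 1 Aged Impaired and 1 Young array, with signals of 2.59 to 4.03 in Aged Impaired, 3.46 to 3.86 in Aged Unimpaired and 2.95 to 4.08 in Young arrays. It was left out of the fit, and no fold is given for it.

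Of the other importers, Slc39a1, a plasma membrane ZIP, averaged 9.49 ± 0.18 in Aged Impaired, 9.39 ± 0.12 in Aged Unimpaired and 9.44 ± 0.11 in Young arrays. Its log2 difference from Young arrays was 0.05 ± 0.07 (SE) in Aged Impaired and -0.05 ± 0.07 in Aged Unimpaired arrays. Slc39a14, a ZIP that also carries iron and manganese, averaged 6.92 ± 0.21 in Aged Impaired, 6.93 ± 0.08 in Aged Unimpaired and 6.88 ± 0.16 in Young arrays, with log2 differences of 0.04 ± 0.08 (SE) and 0.05 ± 0.09 from Young arrays. For both genes the groups overlapped.

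In the fit across all 9076 genes (limma with Benjamini-Hochberg adjustment, called at an adjusted p under 0.05), 2 of the 7 members that passed the limit were called for aged against Young arrays, Tmem163 and Slc39a10, both lower. Of all genes 3.71% were called in either direction, 3.09% higher and 0.628% lower. The same 2 members were called for Aged Impaired against Young arrays, where 3.80% of all genes were called, 3.09% higher and 0.716% lower, and for Aged Unimpaired against Young arrays, where 0.760% were called, 0.617% higher and 0.143% lower. These contrasts were treated as used in choosing the set, so the counts are not evidence about zinc transporters as a group. With each array centred on its median, all genes split into 241 higher and 136 lower for aged against Young arrays, in place of 280 and 57, and the 2 members stayed called. The median log2 difference, aged minus Young, was -0.02 over the 7 members and 0.01 over all genes. Both aged groups were set against the same Young arrays, so that their differences are not independent of each other. For Aged Unimpaired against Young arrays the call of Slc39a10 was lost in 10 of 23 fits that left out 1 array (Aged Unimpaired replicate 1, 2, 3, 4 or 7, or Young replicate 1, 2, 3, 4 or 9), and that of Tmem163 without Aged Unimpaired replicate 4 or 5. For Aged Impaired against Young arrays the call of Tmem163 was lost without Aged Impaired replicate 5 or 6.

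**Figure D2:**
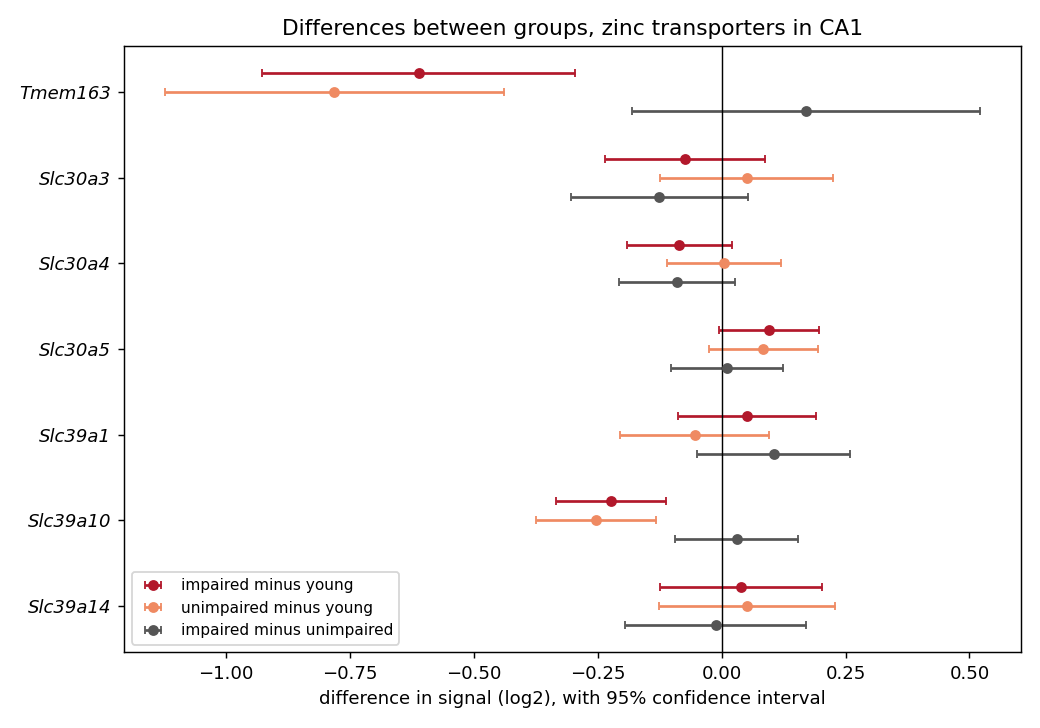
Difference in log2 signal for the 7 transporters that passed the limit, from the fit across all genes, with 95% confidence intervals as bars and a line at 0. Tmem163 and Slc39a10 lie below 0 for both aged groups against Young arrays, and every interval of Aged Impaired minus Aged Unimpaired includes 0.

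The comparison of Aged Impaired with Aged Unimpaired arrays asked whether zinc transporters differ with learning among rats of the same age. None of the 7 members passed the test, and none had an unadjusted p under 0.05 (limma); of all genes 0% were called and 6.93% had an unadjusted p under 0.05. Tmem163 was nominally higher in Aged Impaired arrays, at a log2 difference of 0.17 with a 95% interval of -0.18 to 0.52 (limma, Benjamini-Hochberg adjusted p = 0.877). Slc39a10 differed by 0.03 with an interval of -0.09 to 0.15 (limma adjusted p = 0.951). The vesicle loaders Slc30a3, at -0.13 with an interval of -0.30 to 0.05, and Slc30a4, at -0.09 with an interval of -0.21 to 0.03, had adjusted p-values of 0.814 and 0.785 (limma). Slc39a1 differed by 0.11 (-0.05 to 0.26), Slc30a5 by 0.01 (-0.10 to 0.12) and Slc39a14 by -0.01 (-0.19 to 0.17). All 5 measured markers of CA1 pyramidal cells had negative log2 differences, Aged Impaired minus Aged Unimpaired, from -0.36 (Wfs1) to -0.11 (Man1a1), and none was called (limma). The log2 of their summed signal had a median of 13.53 (13.41 to 13.66) in Aged Impaired and 13.77 (13.61 to 13.83) in Aged Unimpaired arrays. Of the 2 measured genes taken as dentate markers, Prox1 differed by 0.67 and Calb2 by 0.07 in the same comparison. The 6 markers of CA3 and CA2 differed by -0.06 (Bok) to 0.37 (Pcp4), and only Bok was negative. None of these dentate, CA3 and CA2 markers was called (limma). The part of these cells in the differences of Slc30a3, Slc30a4 and the other members between the aged groups was not tested. The order of the group means was Aged Unimpaired, Aged Impaired, Young from low to high for both Tmem163 and Slc39a10, and the first 2 in that order did not differ beyond their spread.

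Although Tmem163 and Slc39a10 were both lower in aged CA1, no correlation between them within a group passed 0.05 after adjustment over the 3 groups. Within the groups their Pearson correlation was -0.40 in Aged Impaired (n = 8, exact permutation p = 0.325), -0.92 in Aged Unimpaired (n = 6, exact permutation p = 0.0333) and -0.03 in Young arrays (n = 9, exact permutation p = 0.944), all 2-sided. Adjusted over the 3 groups by Benjamini-Hochberg these p-values were 0.488, 0.100 and 0.944. Spearman's rho was -0.05 in Aged Impaired, -0.60 in Aged Unimpaired and 0.07 in Young arrays, with exact permutation p-values of 0.935, 0.242 and 0.880 (0.935, 0.725 and 0.935 after adjustment). Without the 2 arrays farthest from the group median of Slc39a10, the Pearson correlation was 0.19 in Aged Impaired, -0.35 in Aged Unimpaired and 0.00 in Young arrays. In Aged Unimpaired rats this leaves 4 arrays over a narrower range of Slc39a10, so the lower value does not show whether the 2 arrays made the relation.

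**Figure D3:**
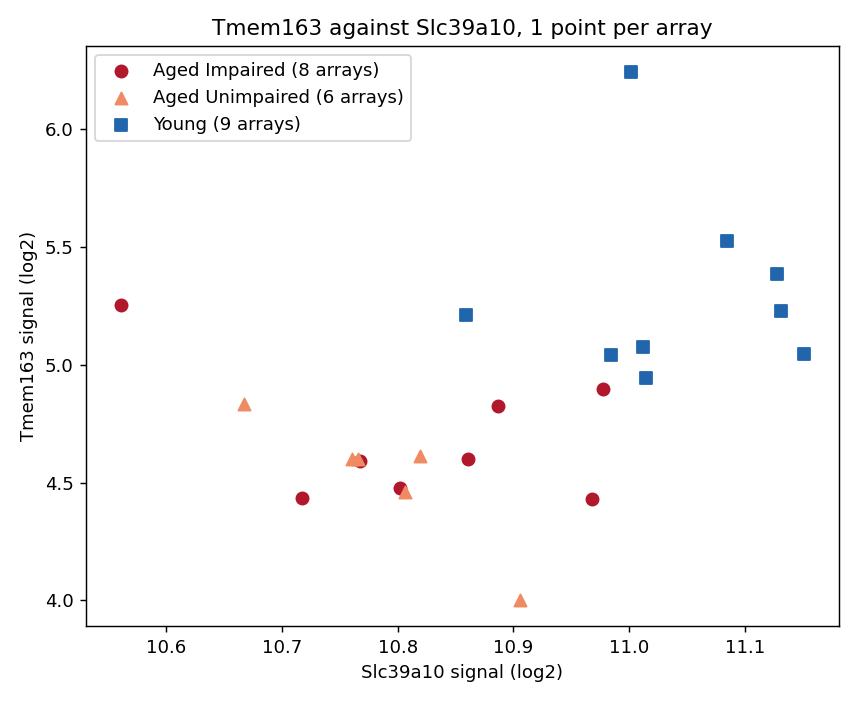
Tmem163 against Slc39a10 signal (log2) on each array, with Aged Impaired as circles, Aged Unimpaired as triangles and Young as squares. Young arrays lie to the upper right of most aged arrays, and within Young arrays the points show no slope (r of -0.03).

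Over the 23 arrays, after the mean of each group was subtracted, Tmem163 had correlations of -0.31 to 0.07 with the other 6 members. The 15 pairs among those 6 all had positive correlations, from 0.10 to 0.46. These are descriptions over arrays that share normalization and RNA quality. The genes most like Tmem163 by this measure, out of 9075, were the Wnt receptor Fzd2 (0.67), Amer2 (0.67), Smg6 (0.66), LOC102555913 (0.62) and Rpusd4 (0.62). The most opposed were Smim19 (-0.73), the phosphatase Dusp3 (-0.66) and Slc18b1 (-0.65). Within single groups these values were uneven: Amer2 had 0.12 in Aged Impaired, 0.39 in Aged Unimpaired and 0.98 in Young arrays, the last with Young replicate 8 among them. Smim19 had -0.87 in Aged Impaired, -0.82 in Aged Unimpaired and -0.73 in Young arrays. For Slc30a3 the likeness was closer: the lipid kinase Pip4k2c reached 0.88, the peptide-amidating enzyme Pam 0.87 and Clptm1 0.82. Pip4k2c stood at 0.96 in Aged Impaired, 0.86 in Aged Unimpaired and 0.80 in Young arrays.

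Zinc genes outside the 8 were described from 3 lists. These lists were also drawn up with earlier results of these data known. Their calls and p-values are therefore a description and not independent evidence about zinc genes. Of 17 other zinc transporters 14 had a probe set of their own and 8 passed the limit for dim ones. None of these 8 was called for aged against Young arrays, nor had an unadjusted p under 0.05 (limma). Of all genes 3.71% were called, so a list this short would often hold no call. The log2 differences of these 8 transporters, aged minus Young, ran from -0.13 to 0.07 with a median of 0.00. The smallest p-values belonged to Slc30a10, which exports manganese in mouse and human (-0.13 ± 0.08 SE, limma adjusted p = 0.499), and Slc39a7, which releases zinc from the endoplasmic reticulum (0.04 ± 0.03, limma adjusted p = 0.578). Slc30a6, which works in a complex with Slc30a5, was among the 8 at -0.04 ± 0.03.

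Among zinc buffering and sensing genes, Mt2A, a metallothionein that binds zinc in the cytosol, was higher in aged CA1. Its lowest, median and highest signals were 9.79, 10.26 and 10.72 in Aged Impaired, 9.65, 10.22 and 10.80 in Aged Unimpaired and 9.38, 9.60 and 10.10 in Young arrays, and 10 of 14 aged rats exceeded the whole Young range. Mt2A differed by 0.48 ± 0.13 on the log2 scale between aged and Young arrays (SE, limma, Benjamini-Hochberg adjusted p = 0.0405), a signal 1.40-fold higher. The call was close to the threshold and was lost in 13 of 23 fits that left out 1 array, with adjusted p from 0.0222 to 0.0951 (limma), and with each array centred on its median. Metallothionein genes are related in sequence, so the probe set may also take up RNA of a close copy, which was not tested. Of the 3 genes of this list that passed the limit, Mt2A was the only one called. The brain metallothionein Mt3 differed by 0.07 ± 0.03 (limma adjusted p = 0.356), and the zinc-sensing transcription factor Mtf1 by 0.14 ± 0.06 (limma adjusted p = 0.253). For Aged Impaired against Young arrays Mt2A differed by 0.50 ± 0.15 (limma adjusted p = 0.0666), for Aged Unimpaired against Young arrays by 0.46 ± 0.16 (limma adjusted p = 0.269) and for Aged Impaired against Aged Unimpaired arrays by 0.04 ± 0.17 (limma adjusted p = 0.983).

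Of 8 vesicular zinc partners, the vesicular glutamate transporter Slc17a7 and subunits of the AP-3 adaptor that sorts Slc30a3 to vesicles in mouse, all passed the limit. None of the 8 partners was called for aged against Young arrays, beside 3.71% of all genes, so the absence of calls says little. The median log2 difference of the 8 partners was 0.04, and the smallest p-values were those of the neuronal subunits Ap3b2 (0.12 ± 0.05, limma adjusted p = 0.291) and Ap3m2 (0.11 ± 0.06, limma adjusted p = 0.423). Slc17a7 differed by -0.03 ± 0.06. No gene of the 3 lists was called for Aged Impaired against Young, Aged Unimpaired against Young or Aged Impaired against Aged Unimpaired arrays, where 1, 2 and 0 of the 19 genes had an unadjusted p under 0.05 (limma), beside 16.5%, 9.84% and 6.93% of all genes. For aged against Young arrays 3 of the 19 did, beside 15.3% of all genes.

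**Figure D4:**
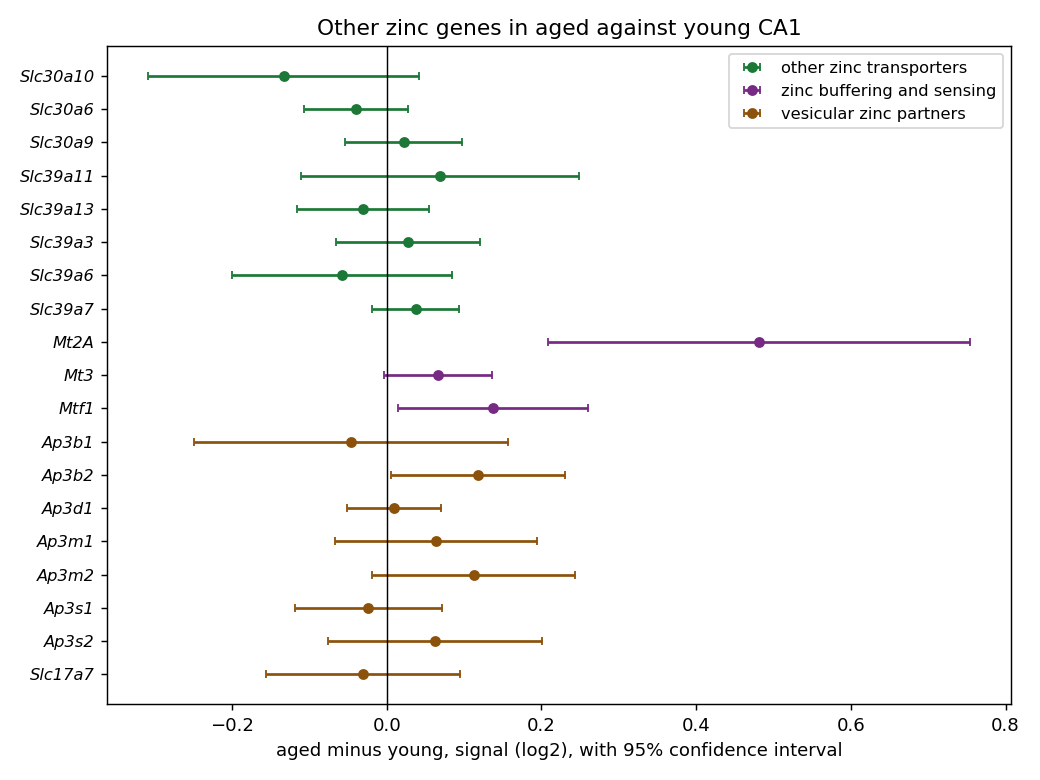
Aged minus Young difference in log2 signal for the 19 other zinc genes that passed the limit, from the fit across all genes, with 95% confidence intervals as bars and a line at 0. Mt2A lies at 0.48, and all other values lie between -0.13 and 0.14.

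Some markers of other cell types moved with age beside Tmem163, Slc39a10 and Mt2A. Of all genes 3.09% were called higher and 0.628% lower for aged against Young arrays. Of 6 microglial markers 3 were called higher in aged CA1, among them C1qa at a log2 difference of 0.55, and the log2 of their summed signal ran from 12.93 to 13.33 in aged and from 12.63 to 12.94 in Young arrays. Of 6 astrocyte markers 2 were called higher, Gfap by 0.51 and S100b by 0.14 on the log2 scale (summed signal 15.80 to 16.08 in aged, 15.69 to 15.88 in Young arrays). Of 6 endothelial markers 2 were called lower (11.30 to 11.89 in aged, 11.47 to 12.06 in Young arrays). Of 4 measured meningeal markers 2 were called lower and 1 higher (Igf2 and Dcn lower, Ptgds higher), with a sum that Ptgds leads (11.80 to 13.05 in aged, 11.69 to 11.92 in Young arrays), while Col1a1 did not pass the limit. For aged against Young arrays none was called among 5 measured CA1 pyramidal, 6 CA3 and CA2, 5 oligodendrocyte and 3 oligodendrocyte precursor markers. The same held for 6 interneuron and 1 choroid plexus markers and for the 2 genes taken as dentate markers. With 3.71% of all genes called in either direction, lists this short would often hold no call. The part of these cell types in the lower Tmem163 and Slc39a10 signals and in the higher Mt2A signal was not tested.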

How the data were processed

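Total RNA of rat CA1 was measured on Affymetrix rat expression arrays (Rat Genome 230 2.0), 1 array per biological replicate by its label. The deposited table holds log2 signals. The submitters' processing notes name GCRMA, a method of background correction, normalization and probe summary; its version and settings are not given in the sources used here. Of 24 sample columns 1, an Aged Unimpaired array omitted by the submitters after quality control, was blank, and 23 were used as deposited. Groups came from the sample titles. The number of arrays limits the precision.

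For each gene the brightest probe set with 1 gene symbol was used, among those over a log2 signal of 4 in at least 6 arrays (9076 genes). Group means were fitted with limma 3.58.1 in R 4.3.3 and adjusted by Benjamini-Hochberg over all genes of a comparison; the aged mean weighted rats equally. The fit was tested on simulated data. Members and lists were chosen with earlier results of these data known. Named were all members, in each other list the called genes (at most 4) or else those with the 2 smallest p-values, and the genes most and least correlated with Tmem163 and Slc30a3; Slc30a6, Slc17a7, Mt3 and Mtf1 were named for their roles after their values were seen. Start-site regions come from RefSeq (GRCr8). Alternatives changed normalization, filter, probe set choice, array weights, moderation, RNA quality, pairing by replicate number and leaving out each array. No batch or date is labelled, so none was modelled. Exact permutation tests used SciPy 1.17.1, and figures matplotlib 3.10.9 in Python 3.11.15.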

Additional observations from a re-analysis of the deposited data

Results flagged for a closer look

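An array was marked where the highest or lowest signal of a group stood far from the nearest of the others, by Dixon's 95% critical value, which chance exceeds in about 1 of 20 groups. Of 33 groups (11 probe sets in 3 groups) 5 were marked, 3 of them in dim probe sets. The Tmem163 signal of Young replicate 8 was 6.24, against 5.53 in the next Young array. The Slc39a14 signal in the probe set used of Aged Unimpaired replicate 2 was 6.77, against 6.93 in the next array. In dim probe sets the marked signals were 3.09 in Aged Impaired replicate 3 and 2.50 in Aged Unimpaired replicate 4 (both Slc39a14) and 1.88 in Aged Unimpaired replicate 5 (Tmem163).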

How the results depend on the processing

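For aged against Young arrays 2 members, Tmem163 and Slc39a10, were called under all 35 alternatives, with log2 differences of -0.77 to -0.57 for Tmem163 and -0.26 to -0.22 for Slc39a10. The contrasts with Young arrays were treated as used in choosing the set, so repeated calls on the same arrays support nothing. With the limit for dim probe sets raised to 5, Tmem163 passed through Young arrays. The only aged array over 5 was Aged Impaired replicate 8 (5.25). The count of 2 members for Aged Impaired against Young arrays ranged from 1 to 2 when 1 array was left out, and was 1 (Tmem163) without the 3 least correlated arrays, a setting chosen after seeing the data, where the Slc39a10 difference was -0.18. For Aged Unimpaired against Young arrays the count of 2 ranged from 0 to 2 when 1 array was left out. The 1 other zinc gene called for aged against Young arrays, Mt2A, became 0 with no filter, with every probe set tested on its own, with arrays centred on their median, with quantile normalization, with the replicate block and without the 3 least correlated arrays, and 0 to 1 when 1 array was left out; for Aged Impaired against Young arrays the count of 0 ranged from 0 to 1 when 1 array was left out. For Aged Impaired against Aged Unimpaired arrays the member count was 0 under all 35 alternatives.

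Replicate numbers did not pair the rats: deviations of same-numbered arrays correlated from -0.27 to 0.12 over 20 pairs, and 1 of 23 arrays correlated best with its own number. With the replicate block the calls over all genes were 159 in place of 337 for aged against Young, 165 in place of 345 for Aged Impaired against Young and 31 in place of 69 for Aged Unimpaired against Young arrays, and 2 members stayed called in each; for Aged Impaired against Aged Unimpaired arrays 1 gene, no member, was called in place of 0. Leaving out 1 array gave 224 to 407, 228 to 439 and 35 to 86 calls in these comparisons. Array weights gave 149 calls for Aged Unimpaired against Young arrays. With arrays centred on their median, 63.9% of the calls were higher in place of 83.1% for aged, 66.3% in place of 81.2% for Aged Impaired and 62.5% in place of 81.2% for Aged Unimpaired against Young arrays; quantile normalization gave 70.0% for Aged Impaired.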
